A study of Mus musculus with 24 samples.

Results

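The interferon-stimulated genes are transcripts that cells make in response to interferons, and 31 of them were followed in mouse bone marrow. They are a named set of transcription factors, nucleic acid sensors, antiviral effectors and interferon-inducible GTPases. A probe was taken for a gene when the array files named it by that symbol or by an older alias of it, and the brightest such probe stood for the gene. All 31 were found among the 27975 genes on the array, and all 31 were among the 24391 genes tested.

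Marrow came from female C57BL/6J mice aged 6 weeks that were wild type (WT), Cyp1b1-null, Cyp1a1-null or null for both genes (double-null). They had received olive oil, BP, DMBA or TCDD by intraperitoneal injection, with 50 mg/kg as the labels' dose for all of them, which was not checked for TCDD. BP is benzo(a)pyrene and DMBA a dimethylated benzanthracene, both polycyclic aromatic hydrocarbons. TCDD is a tetrachlorinated dioxin, and all of them bind the aryl hydrocarbon receptor. Cyp1a1 and Cyp1b1 are cytochrome P450 enzymes that oxidise such hydrocarbons. The 10 groups were WT oil (3 arrays), WT BP at 6 h (2), WT DMBA at 12 h (3), WT TCDD at 12 h (3), Cyp1b1-null oil (2), Cyp1b1-null DMBA at 12 h (2), Cyp1a1-null oil (3), Cyp1a1-null BP at 12 h (3), double-null oil (1) and double-null BP at 12 h (2). The labels give no time for the oil groups. Samples were pools of 9 (mice, or some other unit that the labels leave unnamed), so p-values here measure only the spread between these samples, which may be technical. Every array carried its sample in Cy3 and the same kind of reference in Cy5, pooled marrow of oil-treated WT mice, with no dye swap. All levels below are log2(Cy3/Cy5), called the log ratio, on which 0 is the level of the reference and 1 is a doubling. The study asked how the hydrocarbons and the loss of the enzymes change marrow transcripts, and the authors' deposited table lists 9 comparisons. A further 3 between treated groups were added here. The 6 comparisons with WT oil share its 3 arrays, so their results are not independent of each other.

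Type I interferons (the alpha and beta families) signal through the receptor chains Ifnar1 and Ifnar2 to a transcription factor complex that holds Stat2 and Irf9 and binds interferon-stimulated response elements (ISREs). Interferon gamma signals through Ifngr1 and Ifngr2, and genes that respond to it often carry gamma-activated sites (GAS). The products of the genes so induced sense foreign nucleic acid, degrade viral RNA, block translation and attack vacuoles of intracellular pathogens, and in marrow sustained interferon signalling is known to affect stem cells and lymphocyte precursors.

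The 24 arrays lay on 10 slides, and from 38.3% to 84.8% of spots were well above background in Cy3, as the scanner software called it. Markers of marrow were present: the median neutrophil marker stood at percentile 99.5 of the Cy3 signal or higher on every array, and the median erythroid marker between percentiles 87.8 and 94.3. Cyp1a1 lay between -0.43 and 0.11 on the arrays of the Cyp1a1-null and double-null groups and between 1.71 and 1.94 on WT BP arrays, against -0.11 to 0.48 after WT oil. This target gene of the aryl hydrocarbon receptor was at 1.76 to 1.93 on WT DMBA arrays, but at 0.18, 0.15 and 1.55 on WT TCDD arrays and at 0.23 and 0.04 on Cyp1b1-null DMBA arrays, so both Cyp1b1-null DMBA arrays and TCDD replicates 1 and 2 were within the range of WT oil. Cyp1b1 was not low where it should be deleted, with log ratios of 0.51 to 1.08 on Cyp1b1-null oil arrays and 1.57 on the double-null oil array against -0.06 to 0.57 on WT oil arrays. The place of its probe relative to the deleted part is unknown here, so that probe does not check the labels, and the groups are named as labelled. Arrays of a slide resembled each other: over the 31 genes the mean correlation of log ratios was 0.74 between arrays of the same slide and group (12 pairs), 0.70 for the same slide and different groups (11 pairs) and 0.13 for the same group on different slides (7 pairs). WT TCDD replicates 1 and 2 and both Cyp1b1-null DMBA arrays had a raised Cy3 floor, with 5th percentiles of log2 signal from 7.71 to 8.89 against 5.78 to 6.51 elsewhere.

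WT oil replicate 1 stood apart from all other arrays. Its log ratios of the 31 genes had an SD of 1.81, against 0.18 to 0.56 on the other arrays, and 15 of the 31 were beyond 1 in either direction, against 0 to 5. More of the genes stood out in the reference channel than in the sample channel. Ranked among all probes of its array, the Cy5 signal of 19 of the 31 genes lay outside the range of the other 23 arrays, compared with 7 of the 31 in Cy3. Over all genes the shares were 50.4% and 12.6%.

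Rsad2, which encodes the antiviral enzyme viperin, had a log ratio of 5.08 on this array. Its Cy5 signal was at percentile 83.6 there and between 98.3 and 99.3 elsewhere, while its Cy3 signal at percentile 99.3 was inside the range of the others. Iigp1, a GTPase that acts on parasite vacuoles, had a log ratio of -6.08, with Cy5 at percentile 99.6 against 57.7 to 64.5 elsewhere. Igtp was at -2.90, Ifih1 at -2.17, Ifi27l2a at 2.07 and Trim30a at 2.03. The same array carried a signal of liver genes: the median of 12 liver markers was at percentile 99.9 of Cy5 and 95.1 of Cy3, against 16.6 to 36.9 and 13 to 36.9 on the others. Every comparison with WT oil is therefore given with all arrays and again without WT oil replicate 1, which also changes the error estimate of the remaining comparisons. The part of the liver signal in these log ratios was not tested.

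**Figure D1:**
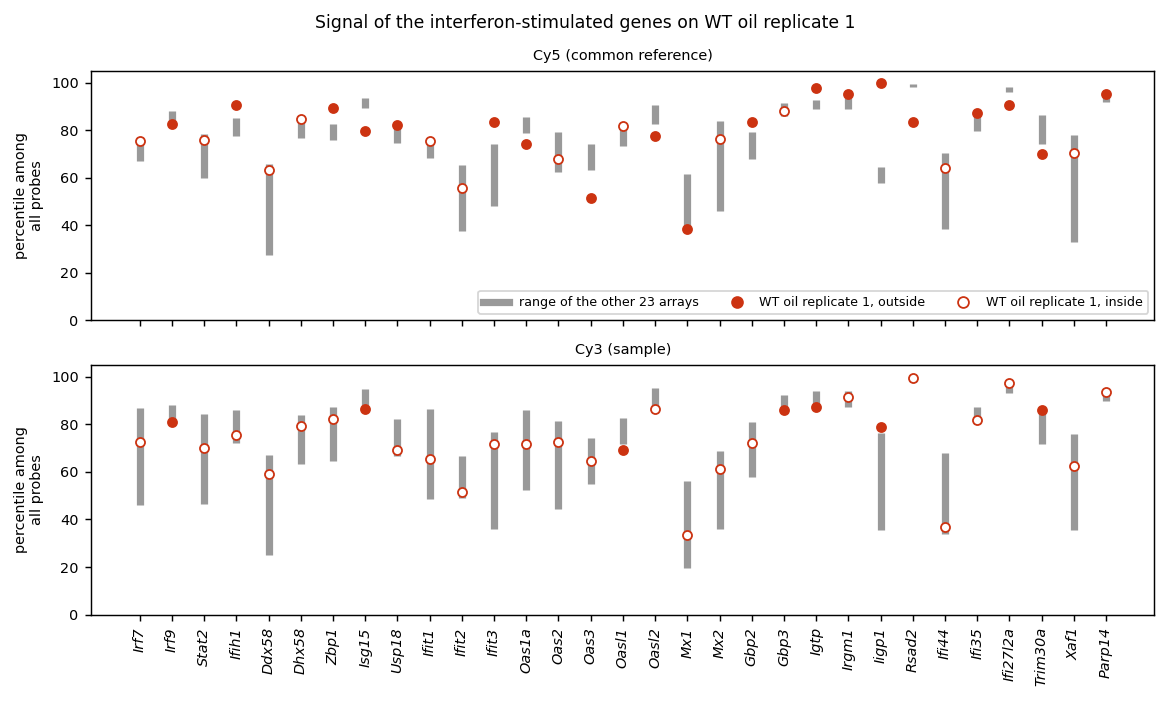
Percentile of each of the 31 genes among all probes of WT oil replicate 1 (points) and the range over the other 23 arrays (grey bars), in Cy5 (top, the common reference) and Cy3 (bottom, the sample). Filled points lie outside the bar: 19 genes in Cy5, with Iigp1 above it and Rsad2 below it, and 7 genes in Cy3.

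Promoter sequence was matched by symbol for 22 of the 31 genes (RefSeq, GRCm38.p6, 250 bases before to 50 after the transcript start). The core of the ISRE was searched as GAAA, any 2 bases, then GAAA again, and the GAS as TTCNNNGAA, on both strands, with overlapping matches counted. The ISRE core was found for 14 of the 22 genes (63.6%), against 3.99% of all 27025 genes with promoters and 3.44% of all 32851 promoters of that length. The GAS was found for 4 of 22 (18.2%), against 9.55% of genes and 8.3% of promoters. The 120 bases before the start of 5 genes with a core are shown so that the repeated GAAA blocks can be seen. They are Isg15 at chr4:156200819-156200938 (minus strand), Ifit1 at chr19:34640769-34640888 (plus), Oas1a at chr5:120907526-120907645 (minus), Gbp2 at chr3:142620543-142620662 (plus) and Igtp at chr11:58199436-58199555 (plus). Capitals mark every match to either motif, and sequences run 5′ to 3′ on the strand of the gene.
Isg15: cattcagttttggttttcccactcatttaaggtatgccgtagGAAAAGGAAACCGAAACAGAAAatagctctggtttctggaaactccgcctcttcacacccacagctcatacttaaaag
Ifit1: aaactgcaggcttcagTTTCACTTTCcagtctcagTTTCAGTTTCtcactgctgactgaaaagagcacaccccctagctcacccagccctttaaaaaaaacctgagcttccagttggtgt
Oas1a: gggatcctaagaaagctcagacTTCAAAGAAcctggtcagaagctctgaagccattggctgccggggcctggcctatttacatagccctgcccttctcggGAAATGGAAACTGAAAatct
Gbp2: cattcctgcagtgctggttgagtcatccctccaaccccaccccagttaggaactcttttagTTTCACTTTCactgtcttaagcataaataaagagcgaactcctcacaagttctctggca
Igtp: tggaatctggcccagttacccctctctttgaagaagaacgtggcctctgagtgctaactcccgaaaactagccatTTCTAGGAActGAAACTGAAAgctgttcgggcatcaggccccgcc

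The run in Isg15 holds 3 overlapping cores and that in Oas1a holds 2, with a GAS further upstream in Oas1a. Ifit1 holds 2 separate cores, on the opposite strand. Gbp2 and Igtp hold 1 core each, with a GAS beside it in Igtp. By contrast the windows of Irf7 at chr7:141266425-141266544 (minus), Ifi44 at chr3:151749911-151750030 (minus) and Oasl2 at chr5:114896814-114896933 (plus), which are shown because these genes rose after BP, hold neither motif as written.
Irf7: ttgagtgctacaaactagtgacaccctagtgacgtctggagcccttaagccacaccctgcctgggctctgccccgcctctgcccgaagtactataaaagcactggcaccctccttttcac
Ifi44: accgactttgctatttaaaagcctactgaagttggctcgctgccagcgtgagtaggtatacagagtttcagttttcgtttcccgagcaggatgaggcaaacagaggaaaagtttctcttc
Oasl2: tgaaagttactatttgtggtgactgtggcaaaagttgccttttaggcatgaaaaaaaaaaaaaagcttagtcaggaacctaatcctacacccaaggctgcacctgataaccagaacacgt
A match is a match of letters only. Of the 6 genes that passed the test after BP in either fit below, 4 had promoter sequence and 1 of those (Gbp2) had the core, while 13 of the 18 other members with sequence had it.

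BP at 6 h against oil in WT marrow had the largest median change of these genes among the 12 comparisons. Irf7, Mx1, Ifi44, Gbp2 and Zbp1 rose by 0.71 to 1.25 on the log2 scale (limma, Benjamini-Hochberg adjusted p under 0.05 over all genes tested). That was 5 of 31 members, where 0.722% of all genes were called in either direction and 0.197% were called higher. Without WT oil replicate 1 the same 5 and Oasl2 rose, 6 of 31 where 3.86% of all genes were called and 1.48% called higher. The median change over the 31 was 0.61 with all arrays, and 26 were above 0. Without WT oil replicate 1 it was 0.42, with 29 above 0. The median of all genes was 0.0097 and 0.018. Both BP arrays lay above every oil array for 16 members (10.6% of all genes did so) and for 17 without that oil array (23.1%). They lay below every oil array for 0 members (11.7%) and for 1, Ddx58, without it (21%).

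Among the transcription factors, Irf7, the factor that amplifies type I interferon production, had log ratios of -0.23, 0.25 and 0.28 on the oil arrays and 1.07 and 1.59 on the BP arrays. The groups were apart, and the 2 BP arrays were the highest of all 24, the next being a double-null BP array at 0.61. The change was 1.23 ± 0.195 (SE; adjusted p = 0.0118, limma), and 1.06 ± 0.187 without WT oil replicate 1 (adjusted p = 0.00599). Irf9 and Stat2, which act in the complex that binds ISREs, overlapped between the groups, with changes of 0.21 ± 0.183 and 0.09 ± 0.359. Their changes without WT oil replicate 1 were 0.06 ± 0.177 and -0.21 ± 0.344.

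Of the sensors, Zbp1, which binds left-handed nucleic acid and can start necroptosis, was at -1.11, -0.18 and -0.59 after oil and at 0.72 and 0.25 after BP. Every BP value was above every oil value, and the change was 1.11 ± 0.230 (adjusted p = 0.0363, limma) or 0.87 ± 0.203 without WT oil replicate 1 (adjusted p = 0.026). The RNA helicases overlapped in the fit of all arrays. Ifih1 (MDA5) changed by 0.94 ± 0.441 (adjusted p = 0.316) and by 0.24 ± 0.223 without the outlying oil array, Dhx58 (LGP2) by 0.33 ± 0.159 and 0.20 ± 0.152. Ddx58 (RIG-I) had a negative estimate, -0.22 ± 0.253, and -0.48 ± 0.225 without that array (adjusted p = 0.258). Its other 3 probes gave 0.22 to 0.40 with all arrays and 0.01 to 0.17 without that array, so its probes disagree in sign. Among these 3, 1 probe was well above background on only 7 arrays.

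The Mx genes encode dynamin-like GTPases that block viral replication. Mx1 was at -0.06, -0.25 and -0.07 after oil and at 0.56 and 0.60 after BP, with little spread inside either group. It rose by 0.71 ± 0.115 (adjusted p = 0.0128, limma), and by 0.74 ± 0.124 without WT oil replicate 1 (adjusted p = 0.00507). The probe was dim, well above background in Cy3 on 1 of 3 oil arrays and both BP arrays, and a second Mx1 probe gave 0.22. In Cy3 alone, with no division by the reference, the Mx1 change was 0.16. Mx2 was at -1.45, -0.22 and 0.18 against 0.91 and 0.42, and did not pass (1.16 ± 0.326, adjusted p = 0.107; 0.68 ± 0.208 without WT oil replicate 1).

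Of the interferon-inducible GTPases, which act on vacuoles of intracellular pathogens, Gbp2 was at -1.34, -0.19 and -0.39 after oil and 0.84 and 0.39 after BP. These arrays did not overlap, and no other array of the study reached the BP values of Gbp2, the next highest being 0.13. The gene rose by 1.25 ± 0.250 (adjusted p = 0.0326, limma) or 0.90 ± 0.173 (adjusted p = 0.00964) without WT oil replicate 1. Gbp3, Igtp and Irgm1 also had both BP arrays above all oil arrays but did not pass, with changes of 0.47 ± 0.179, 1.46 ± 0.597 and 0.89 ± 0.337. The estimates without WT oil replicate 1 were 0.32 ± 0.174, 0.42 ± 0.180 and 0.42 ± 0.232. For Iigp1 the 2 BP arrays disagreed, at 1.43 and -0.16, and the estimate of 2.62 ± 1.19 became 0.57 ± 0.399 without that oil array.

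The OAS genes make the activator of RNase L or related ubiquitin-like proteins. Oasl2 was at 1.23, 0.27 and -0.42 after oil and 2.26 and 1.34 after BP, so that its lower BP array lay only just above WT oil replicate 1. It passed only without that array, 1.88 ± 0.327 (adjusted p = 0.00569, limma), against 1.44 ± 0.386 with it (adjusted p = 0.092). Oas1a and Oasl1 had both BP arrays above every other array of the study, with changes of 0.61 ± 0.186 (adjusted p = 0.137) and 1.17 ± 0.328 (adjusted p = 0.106). For Oasl1 it was 0.71 ± 0.221 without WT oil replicate 1. Oas2 and Oas3 were at 0.02 ± 0.187 and -0.17 ± 0.179, and their groups overlapped, with 0.19 ± 0.176 and 0.04 ± 0.152 without that array. A second Oas3 probe disagreed: it was at 0.03, 0.14 and -0.09 after oil and 0.43 and 0.41 after BP, which do not overlap, a difference of 0.39.

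Ifit1, which binds foreign cap structures, had the highest single values of its family: -0.97, 0.30 and 0.90 after oil and 2.03 and 1.29 after BP. The groups did not overlap, yet the spread among oil arrays was wide, and the change of 1.58 ± 0.406 did not pass (adjusted p = 0.0805; 0.0652 without WT oil replicate 1, limma). Ifit2 and Ifit3 overlapped (0.26 ± 0.211 and 0.66 ± 0.309; 0.10 ± 0.208 and 0.21 ± 0.205 without that array). In the ISG15 system, Isg15, a ubiquitin-like modifier, was at 1.01, 0.22 and 0.40 after oil and 0.86 and 0.75 after BP, above both remaining oil arrays but not above WT oil replicate 1 (0.26 ± 0.257, and 0.49 ± 0.240 without it). Usp18, which removes Isg15 from proteins and restrains the receptor, was higher by 0.95 ± 0.315 (adjusted p = 0.17), or by 0.46 ± 0.168 without that array (adjusted p = 0.145), and did not pass.

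Among the other effectors, Ifi44, whose product restrains proliferation and viral growth, was at -1.25, -0.43 and -0.02 after oil and 0.82 and 0.29 after BP. It rose by 1.12 ± 0.245 (adjusted p = 0.0437, limma) and by 0.78 ± 0.170 without WT oil replicate 1 (adjusted p = 0.0188). This probe too was dim, well above background in Cy3 on 1 of 3 oil arrays, and in Cy3 alone its change had the other sign, -0.13, while its second probe gave 0.72. Rsad2 was at 0.09 and 0.93 on the 2 oil arrays other than replicate 1 and at 1.63 and 0.77 after BP, which overlap, and its estimate went from -0.84 ± 0.888 to 0.69 ± 0.305 when replicate 1 was left out. Its other 2 probes did not overlap without it: 0.75 and 0.58 against 1.16 and 1.23, and 0.73 and 0.60 against 1.32 and 1.24. On WT oil replicate 1 those probes were at 3.45 and 3.65. Ifi35, Ifi27l2a, Trim30a, Xaf1 and Parp14 ranged from -0.52 to 0.58 in the fit of all arrays and none passed. All 5 were above 0 without WT oil replicate 1, from 0.02 to 0.31, where Ifi27l2a went from -0.45 to 0.28 and Trim30a from -0.52 to 0.23. Without that array a second Trim30a probe was at 0.30 and 0.33 after oil and 0.56 and 0.62 after BP, which do not overlap. The other 2 Ifi27l2a probes were apart too, with differences of 0.74 and 0.62, while those of Parp14 gave -0.23 and 0.64.

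**Figure D2:**
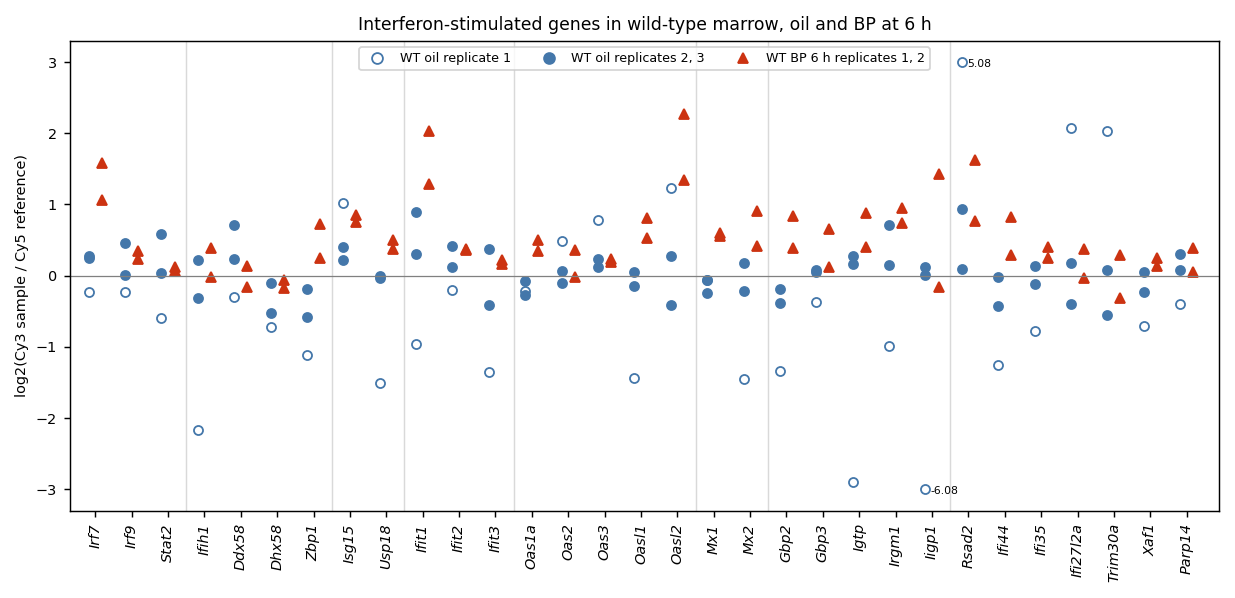
Log ratio of each of the 31 genes on the 3 WT oil arrays (circles, replicate 1 open) and the 2 WT BP 6 h arrays (triangles), ordered by role with grey lines between roles. The 2 points of WT oil replicate 1 that lie beyond the axis are drawn at its limit with their values (Rsad2 5.08, Iigp1 -6.08), and the triangles of Irf7, Mx1, Gbp2, Zbp1 and Ifi44 lie above all circles of their gene.

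For 9 of the 31 genes (Irf7, Mx1, Ifit1, Oas1a, Oasl1, Oasl2, Gbp2, Irgm1 and Xaf1) the 2 BP arrays were the 2 highest of all 24 arrays, which held for 0.599% of all genes tested. The median log ratio of the 31 on each array was 0.35 and 0.39 after BP at 6 h, the highest of any array. The limits of this comparison are in the layout. Both BP arrays lay on a slide of their own, so slide and BP cannot be told apart in these data. With slide as a random block no member passed, at an adjusted p of 1 for each of the 6 genes and of 0.197 (Oasl2) to 0.397 (Zbp1) without WT oil replicate 1, and of all genes 0 and 2 passed. Leaving out BP replicate 1 left 1 member called and leaving out BP replicate 2 left 0 (0.0246% and 0.0533% of all genes), while 9 and 11 were called without WT oil replicate 2 and 3 (4.29% and 6.22% of all genes). In Cy3 alone, Irf7 was the 1 member called (1.44 ± 0.267, adjusted p = 0.0366, limma), and 0 members were called from the scanner's own processed signals or without background subtraction.

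Cell type markers moved beside these genes. The median of 10 monocyte and macrophage markers was 0.53 on both BP arrays and 0.17, 0.20 and 0.17 on the oil arrays. On WT DMBA arrays that median was 0.60, 0.48 and 0.34. Plasmacytoid dendritic cell markers, 8 genes of the cells that make most type I interferon, had medians of 0.42 and 0.66 after BP and 1.69, 0.33 and 0.14 after oil. Neutrophil markers were at 0.90 and 0.99 after BP and 4.73, -0.31 and 0.55 after oil. Megakaryocyte and platelet markers were lower without overlap, at -0.05 and -0.41 after BP and 0.73, 0.63 and 0.32 after oil. In bulk marrow more cells of a type and more RNA per cell cannot be told apart, and the part of these markers in the result was not tested.

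The authors' deposited table, which gives log2 differences between group means with no values per sample, also lists the comparison of BP with oil. Above 0 in the authors' deposited table were 28 of the 31 genes, with a median of 0.45, and 6 were at 1 or more, where 6% of all probes were. These were Irf7 (1.23), Mx1 (1.61), Mx2 (1.40), Ifit1 (1.03), Oasl2 (1.89) and Ifi44 (1.49) in the authors' deposited table.

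Other genes of the interferon pathway were read in the same comparison from 5 lists of 82 tested genes. With all arrays 3 rose and 0 fell, where 0.197% and 0.525% of all genes did. Without WT oil replicate 1, 9 rose and 0 fell, where 1.48% and 2.37% of all genes did. Cxcl10, a chemokine induced by interferon, was at -0.26, -0.28 and 0.25 after oil and 3.26 and 1.84 after BP. Elsewhere in the study it reached at most 1.49, not far below the lower BP array. It rose by 2.65 ± 0.324 (adjusted p = 0.00287, limma), by 2.56 without WT oil replicate 1 (adjusted p = 0.00163), and by 2.50 in Cy3 alone (adjusted p = 0.0138). With slide as a random block its adjusted p was 1, and 0.157 without that oil array. Ifitm3, which keeps viruses from fusing with endosomes, rose by 0.95 ± 0.194 (adjusted p = 0.0335) and Ifi204, a DNA sensor of the p200 family, by 0.84 ± 0.175 (adjusted p = 0.0371).

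Of the ligands, Ifnb1 (interferon beta) was at 0.59, -0.25 and -0.08 after oil and 2.41 and 0.80 after BP, apart but with a wide gap between the BP arrays. Its change was 1.52 ± 0.370 (adjusted p = 0.0654, limma) and passed without WT oil replicate 1 at 1.77 (adjusted p = 0.015). Ifng (interferon gamma) was at 0.61, -0.09 and -0.56 against 1.22 and 0.84, with 1.04 ± 0.356 (adjusted p = 0.182), and 1.35 ± 0.337 without that array (adjusted p = 0.0343). Ifna2 and Ifnl3 were both at 0.18 and did not pass, and Ifna4 and Ifnk were not well above background on any of these 5 arrays. Ifna1 and Ifnl2 were not matched to a probe. No receptor chain of 6 passed in either fit. Without the oil array 2 of 12 signalling genes and 1 of 14 sensing genes rose, where 1.48% of all genes did. Among the signalling genes, Socs3, a feedback inhibitor of cytokine receptors, rose by 1.29 ± 0.156 (adjusted p = 0.000724, limma). The sensing gene was the RNA receptor Tlr7, by 0.93 ± 0.137 (adjusted p = 0.00212, limma). With all arrays these were 0.92 ± 0.252 (adjusted p = 0.101) and 0.52 ± 0.259 (adjusted p = 0.337). None passed with slide as a random block and without the oil array, at an adjusted p of 0.396 for Ifnb1 and for Ifng, 0.0971 for Socs3 and 0.204 for Tlr7 (limma).

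**Figure D3:**
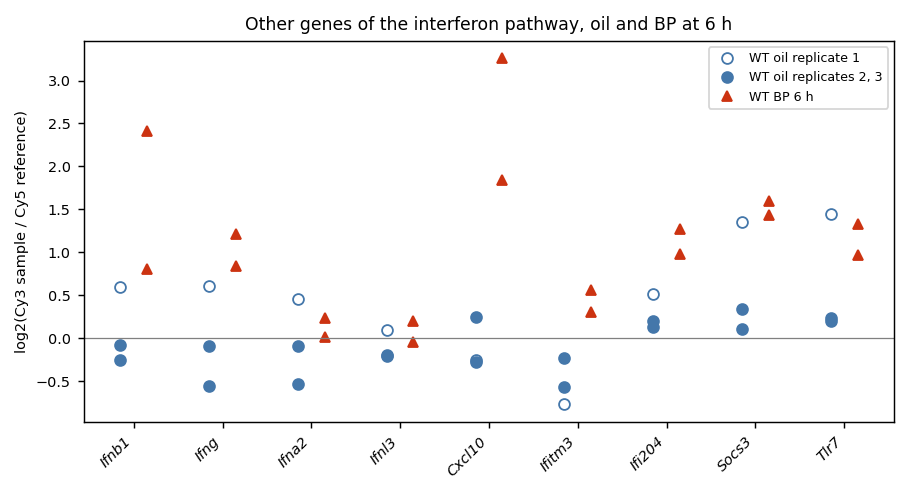
Log ratio of interferon ligands (Ifnb1, Ifng, Ifna2, Ifnl3) and of other pathway genes on WT oil arrays (circles, replicate 1 open) and WT BP 6 h arrays (triangles). Cxcl10 shows the widest separation, and both triangles lie above all circles for Ifnb1, Ifng, Cxcl10, Ifitm3, Ifi204 and Socs3.

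After DMBA at 12 h no member was called in WT marrow, with 0% of all genes called in the fit of all arrays and 0.0984% without WT oil replicate 1. At an unadjusted p under 0.05 there were 6 members (12.4% of all genes) and 1 without that array (8.99%). The 1 was Mx1, which was at 0.15, 0.03 and 0.23 against -0.06, -0.25 and -0.07 after oil, which do not overlap (0.26 ± 0.103, adjusted p = 0.399, limma; 0.29 ± 0.114 without WT oil replicate 1). Irf7 stayed within the range of the oil arrays, at 0.19, 0.19 and 0.02. The DMBA arrays lay above every oil array for 3 members (6.04% of all genes) and below for 1 (4.19%), and without WT oil replicate 1 for 3 (14.4%) and 3 (8.78%). The median change of the 31 was 0.17, and -0.0069 without WT oil replicate 1. On the slide that carried 2 DMBA arrays and 1 oil array it was -0.09. Leaving out WT oil replicate 2 gave 2 called members (3.47% of all genes). None of 82 other pathway genes was called in either fit.

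After TCDD at 12 h no member was called either, although 2.19% of all genes were with all arrays and 6.13% without WT oil replicate 1. Cyp1a1 was at 1.55 on TCDD replicate 3 but at 0.18 and 0.15 on the others, and the part of this in the members' result was not tested. At an unadjusted p under 0.05 there were 8 and 7 members, against 21.4% and 25.1% of all genes. Of the OAS family, Oas1a, Oas2, Oas3 and Oasl2 had estimates below 0 (-0.56 to -0.36) and Oasl1 one of 0.73 ± 0.293, and without WT oil replicate 1 Oasl1 was at 0.26 and Oasl2 at 0.01. Oas2 was at -0.50, -0.11 and -0.62 against 0.49, 0.06 and -0.10 after oil, narrowly apart (-0.56 ± 0.168, adjusted p = 0.0814, limma). Rsad2 was at -0.40, -0.26 and -0.16, below the oil arrays at 0.09 and 0.93 (-0.79 ± 0.279 without WT oil replicate 1, adjusted p = 0.0926). With all arrays the TCDD arrays lay above every oil array for 2 members (6.75% of all genes) and below for 4 (10.6%). Without that array 11 members lay below both oil arrays, where 19.8% of all genes did, and 2 above (19.2%). The median change went from 0.047 to -0.13 when that array was left out, and 7 members were called without WT oil replicate 2 and also without replicate 3, where 17.8% and 8.48% of all genes were. Of the 82 other pathway genes 0 rose and 3 fell with all arrays, where 0.303% and 1.89% of all genes did. Without WT oil replicate 1, 2 rose and 5 fell (2.21% and 3.91% of all genes). In Cy3 alone 13 members were called after TCDD, as were 69% of all genes, beside the raised Cy3 floor of TCDD replicates 1 and 2, whose part was not tested.

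DMBA and TCDD, both ligands of the same receptor, are labelled with the same dose and time. All 3 TCDD arrays lay on a slide of their own, so compound and slide cannot be told apart, here and in TCDD against oil. No member was called between them, with 0.648% of all genes called, or 6.29% without WT oil replicate 1. At an unadjusted p under 0.05 there were 2 members with all arrays (9.28% of all genes) and 6 without (19.5%). The lowest adjusted p was that of Oas2, where DMBA arrays at -0.09, 0.14 and 0.19 lay above the TCDD arrays given above: 0.49 ± 0.168 (adjusted p = 0.278, limma), or 0.49 ± 0.144 without WT oil replicate 1 (adjusted p = 0.0517). The DMBA arrays lay above every TCDD array for 8 members (17.3% of all genes) and below for 1 (14.5%). Of the 82 other pathway genes 3 were called higher after DMBA and 0 lower, where 0.525% and 0.123% of all genes were. Without WT oil replicate 1 there were 6 and 0 (4.44% and 1.84% of all genes). The 95% interval of the Oas2 difference in the first fit was 0.14 to 0.85. In Cy3 alone 17 members were called between the compounds, as were 78.1% of all genes, again with that floor on one side. For Irf7 the difference was 0.23 ± 0.174 with a 95% interval of -0.14 to 0.59. BP was sampled at 6 h and the other compounds at 12 h, so BP was not compared with them. Side by side, the changes of Irf7 against oil were 1.23 after BP at 6 h, 0.04 after DMBA at 12 h and -0.19 after TCDD at 12 h.

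**Figure D4:**
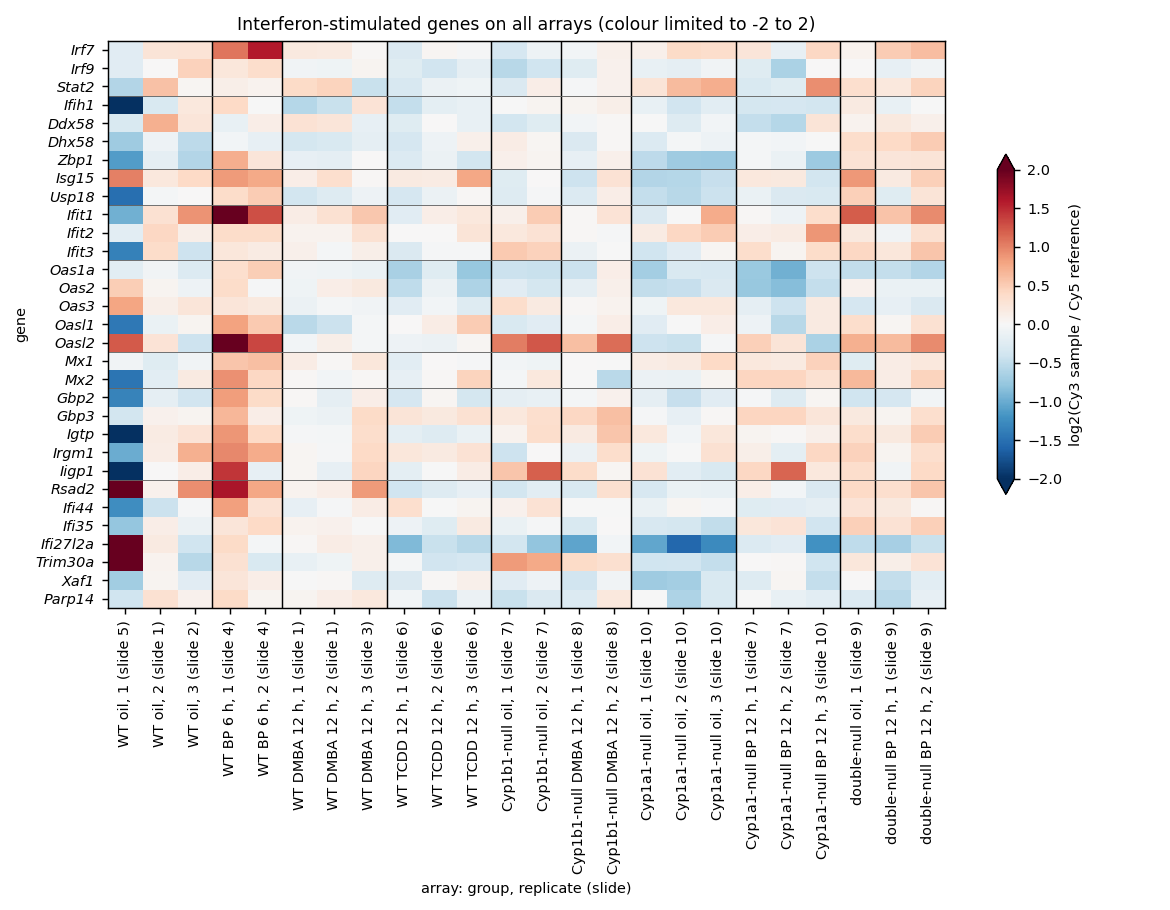
Log ratio of the 31 genes (rows, grouped by role) on the 24 arrays (columns, with group, replicate and slide), coloured from blue (-2 or lower) to red (2 or higher). The 2 BP 6 h columns are red for most genes, and the first column (WT oil replicate 1) is at both ends of the scale. Oasl2 is red in all 4 Cyp1b1-null columns and also in the BP 6 h and double-null columns.

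Marrow labelled Cyp1b1-null was compared with WT marrow after oil, that is, without a hydrocarbon. Both Cyp1b1-null oil arrays lay on a slide that held no WT array, so genotype and slide cannot be told apart in this comparison. With all arrays Dhx58 (0.55 ± 0.159, adjusted p = 0.0301), Ifit3 (0.96 ± 0.309, 0.0459), Ifi44 (0.75 ± 0.245, 0.0473) and Zbp1 (0.70 ± 0.230, 0.0493) were higher and Irf9 was lower (-0.56 ± 0.183, 0.0476; limma). That is 5 of 31 members, or 16.1%, against 15.5% of all genes. Of all genes 8.57% were called higher and 6.92% lower. Without WT oil replicate 1 there were again 5, where 29.7% of all genes were called, but of the first 5 Irf9 alone was among them (-0.71 ± 0.177, adjusted p = 0.00731). In Cy3 alone no member was called, and Dhx58 and Zbp1 had the other sign, at -0.02 and -0.24. Monocyte and macrophage markers were higher on these arrays, at 0.54 and 0.60 against 0.17 to 0.20. Lower without overlap were plasmacytoid dendritic cell markers, at -0.23 and 0.12 against 1.69, 0.33 and 0.14. So were B lineage markers, at -0.41 and -0.14 against 3.17, 0.29 and 0.35, and erythroid markers, at -0.34 and -0.24 against 2.93, -0.12 and 0.26. The part of all these markers was not tested.

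The others in that fit were Trim30a, a restrainer of inflammatory signalling, at 0.85 and 0.76 against 0.08 and -0.55 (1.04 ± 0.207, adjusted p = 0.00238, limma), and Oasl2 at 1.03 and 1.24 against 0.27 and -0.42 (1.21 ± 0.327, adjusted p = 0.0116), both higher. With all arrays these were 0.29 ± 0.458 (adjusted p = 0.701) and 0.77 ± 0.386 (adjusted p = 0.179), with WT oil replicate 1 at 2.03 above both null arrays for Trim30a and at 1.23 between them for Oasl2. In Cy3 alone Trim30a was at -0.33, or -0.13 without that array. Ddx58 and Parp14, a mono-ADP-ribosyltransferase, were lower (-0.78 ± 0.225 and -0.57 ± 0.202, adjusted p = 0.0163 and 0.0439), against -0.52 ± 0.253 and -0.37 ± 0.217 with all arrays. Of all genes 17.3% were called higher and 12.4% lower in that fit. Both Cyp1b1-null arrays lay above every oil array for 7 members (22.5% of all genes) and below for 5 (16.4%), and without WT oil replicate 1 for 9 (37.1%) and 10 (27.2%). With slide as a random block 0 members passed in either fit. Leaving out either Cyp1b1-null oil array left 0 called members, and leaving out WT oil replicate 2 gave 9 (24.9% of all genes). Of 82 other pathway genes 5 rose and 16 fell with all arrays, and 12 rose and 22 fell without WT oil replicate 1, beside the shares of all genes given above. More of these genes fell than rose in both fits, and those that fell are not named here. Ifna2, named because it is a ligand, was among those that rose. It was at 1.12 and 1.18 against 0.45, -0.09 and -0.53 (1.20 ± 0.355, adjusted p = 0.0321, limma).

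DMBA at 12 h against oil in Cyp1b1-null marrow gave no called member, where 0.0246% of all genes were called, and 7.5% without WT oil replicate 1. Both Cyp1b1-null DMBA arrays lay on a slide of their own. Slide therefore cannot be told apart from treatment here, or from genotype in the comparison after DMBA, nor in the test of the response below. Cyp1a1 was at 0.23 and 0.04 on these DMBA arrays, near the Cyp1b1-null oil arrays at -0.01 and 0.02, and its part was not tested. No member reached an unadjusted p under 0.05 in the first fit and 3 did in the second (14.6% and 24.6% of all genes). With 2 arrays a group, 11 members lay higher without overlap (35% of all genes) and 7 lower (37.6%). Oasl2 stayed high, at 0.59 and 1.11 after DMBA. It was also at 0.70 on the double-null oil array and at a mean of 0.79 on the double-null BP arrays. Against WT DMBA arrays, at -0.06, 0.12 and -0.04, both Cyp1b1-null DMBA arrays were higher (0.85 ± 0.386, adjusted p = 1, and 0.219 without WT oil replicate 1; limma). No member was called in that comparison of the genotypes after DMBA (0.102% and 1.58% of all genes), with 2 and 4 members at an unadjusted p under 0.05 (4.36% and 10.5% of all genes). They lay above every WT DMBA array for 4 members (23.6% of all genes) and below for 3 (18.2%). In Cy3 alone 10 were called, as were 67.4% of all genes, and both Cyp1b1-null DMBA arrays had the raised floor. The test of whether the DMBA response differed between the genotypes called 0 members of 31 in both fits, with 0.0082% and 3.06% of all genes called and 2 and 4 members at an unadjusted p under 0.05.

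In Cyp1a1-null marrow after oil, Isg15 and Ifi27l2a were lower than in WT oil, 2 of 31 members where 3.59% of all genes were called and 2.55% called lower. Isg15 was at -0.58, -0.57 and -0.46 against 1.01, 0.22 and 0.40, well apart, with a change of -1.08 ± 0.230 (adjusted p = 0.0225, limma) and of -0.84 ± 0.219 without WT oil replicate 1 (adjusted p = 0.0292). Ifi27l2a, a small mitochondrial protein gene strongly induced by interferon, was at -1.04, -1.58 and -1.27 against 2.07, 0.18 and -0.40, with -1.91 ± 0.451 (adjusted p = 0.0322) and -1.19 ± 0.300 (adjusted p = 0.0256). Without WT oil replicate 1 Mx1 passed as well, higher by 0.40 ± 0.114 (adjusted p = 0.0417), which makes 3 of 31 where 7.6% of all genes were called, 3.22% higher and 4.38% lower. The null arrays lay below every WT oil array for 5 members (10.1% of all genes) and above for 1 (8.7%), and without WT oil replicate 1 for 12 (17.4%) and 1 (19.1%). Zbp1, at -0.52, -0.71 and -0.72, was low too but overlapped with WT oil. Of 82 other pathway genes 3 rose and 5 fell with all arrays, where 1.04% and 2.55% of all genes did. Without WT oil replicate 1, 4 rose and 13 fell (3.22% and 4.38% of all genes). Plasmacytoid dendritic cell markers were lower on these arrays without overlap, with medians of -0.43, -0.16 and -0.03 against 1.69, 0.33 and 0.14, and megakaryocyte and platelet markers higher, at 0.81 to 0.98 against 0.32 to 0.73. Their part was not tested.

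All 3 Cyp1a1-null oil arrays shared 1 slide, which also held 1 of the Cyp1a1-null BP arrays, and the other BP arrays were on another slide. Isg15, Ifi27l2a and Stat2 are given as examples of members whose BP array on the oil slide lay nearer to the oil arrays. Isg15 was at -0.37 on the BP array of the oil slide and at 0.21 and 0.19 on the other slide, Ifi27l2a at -1.20 against -0.28 and -0.23, and Stat2 at 0.93 against -0.30 and -0.24, where the oil arrays were 0.26, 0.63 and 0.72. For 23 of the 31 genes (74.2%) the BP array on the oil slide was nearer to the oil mean than the mean of the other 2 BP arrays was. Over all genes the share was about the same, 72.2%. Other members differed more from oil on the oil slide, such as Ifit2 (0.52 against -0.22) and Gbp2 (0.33 against 0.15). The median difference from oil over the 31 was 0.14 on the oil slide and 0.09 on the other. With slide as a random block no member was called in Cyp1a1-null oil against WT oil, nor was one from the processed signals. In Cy3 alone the estimate for Isg15 was 0.26. Leaving out any 1 of the 3 Cyp1a1-null oil arrays left 0 called members. Without WT oil replicate 2 there were 6 and without replicate 3 there were 8, where 20.7% and 15.9% of all genes were called.

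BP at 12 h against oil in Cyp1a1-null marrow called no member (0.0328% of all genes, and 0.156% without WT oil replicate 1), and 3 and 8 members had an unadjusted p under 0.05, against 15.1% and 24.8% of all genes. Gbp3 had the lowest adjusted p, with 0.43, 0.43 and 0.24 after BP against -0.02, -0.16 and 0.02 after oil, which do not overlap (0.42 ± 0.160, adjusted p = 0.232, limma). Only the BP array at 0.24 shared a slide with the oil arrays. Without the BP array of the oil slide (replicate 3), 1 member was called, as were 14.8% of all genes. Of the 31, 5 lay above all oil arrays (8.75% of all genes) and 1 below (5.81%). Irf7 overlapped between BP (0.24, -0.17 and 0.41) and oil (0.10, 0.38 and 0.35). On the shared slide alone the median difference of the 31 was 0.14.

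The single double-null oil array had a median of 0.28 over the 31 genes, above every other oil array. No member was called against WT oil with all arrays, where 1.53% of all genes were called, and 9 had an unadjusted p under 0.05 (17.5% of all genes). Dhx58, at 0.35 against -0.72, -0.11 and -0.52, was nearest (0.80 ± 0.201, adjusted p = 0.0572, limma) and passed without WT oil replicate 1 at 0.66 ± 0.186 (adjusted p = 0.0446), the 1 member called where 6.03% of all genes were, with 3.06% of all genes called higher. The array lay above every WT oil array for 12 members (25.8% of all genes) and below for 4 (20.9%), and without WT oil replicate 1 for 16 (40.6%) and 8 (32%). Leaving out WT oil replicate 2 gave 4 called members and leaving out replicate 3 gave 2 (6.66% and 2.43% of all genes). Ifit1 was at 1.21 and Isg15 at 0.87 on this array, both above WT oil replicates 2 and 3. With 1 array, its spread was taken to be that of the other groups. The array lay on a slide that held no WT array, so genotype and slide cannot be told apart in this comparison.

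In double-null marrow no member passed the test for BP at 12 h against the single oil array. The BP arrays had medians of 0.12 and 0.31 and the median change was -0.059, with 9 of 31 members above 0 and none called (0.283% of all genes, and 0.517% without WT oil replicate 1). At an unadjusted p under 0.05 there were 1 and 3 members (6.18% and 10.3% of all genes), with Mx1 at 0.14 and 0.21 against -0.25 having the lowest adjusted p (0.42 ± 0.154, adjusted p = 0.516, limma). Both BP arrays lay above the oil array for 6 members (35.1% of all genes) and below it for 13 (36.4%). All double-null arrays shared a slide, so this comparison lies within it. This comparison and the last test below rest on the single oil array, with its spread taken from the other groups. Against Cyp1a1-null BP at 12 h, the double-null BP arrays were higher than all 3 for 12 of 31 members (14.1% of all genes) and lower for 0 (15.1%), but none was called (0.172% of all genes, and 3.63% without WT oil replicate 1), and 3 and 6 had an unadjusted p under 0.05 (11.5% and 20.9%). Dhx58, at 0.40 and 0.51 against -0.05, -0.05 and 0.00, came nearest (0.49 ± 0.159, adjusted p = 0.228). The groups lay on different slides and cannot be told apart from them. The BP response in double-null marrow did not pass a test of difference from that in Cyp1a1-null marrow for any member in either fit, at 0.135% and 0.209% of all genes, with 1 and 5 members at an unadjusted p under 0.05 (limma).

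**Figure D5:**
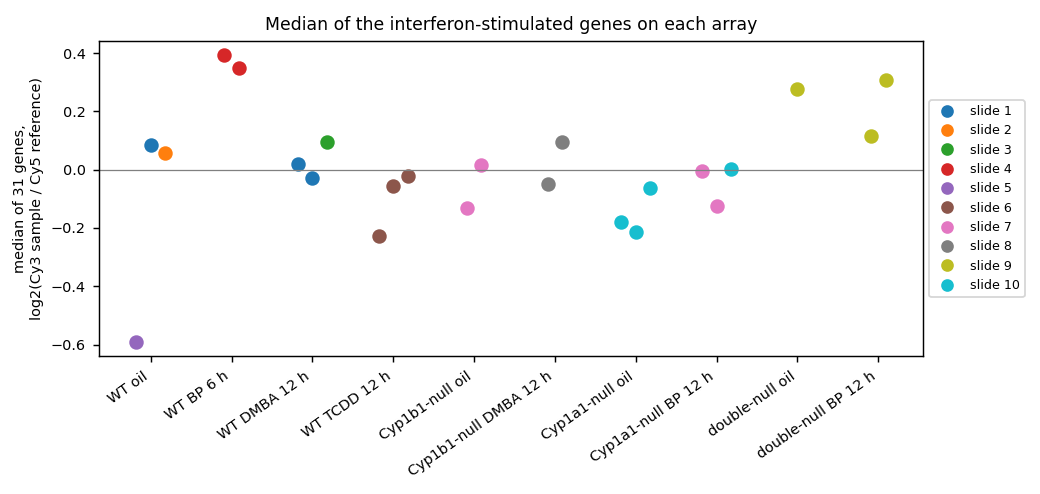
Median log ratio of the 31 genes on each of the 24 arrays, by group, with points coloured by slide. The 2 WT BP 6 h arrays are highest at 0.39 and 0.35, the 3 double-null arrays lie between 0.12 and 0.31, and WT oil replicate 1 is lowest at -0.59.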

How the data were processed

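Each array measured marrow RNA in Cy3 against the common reference in Cy5, on 41174 probes. The deposited scanner files hold mean and background intensity per spot, from Feature Extraction 9.1.3.1 (20 arrays) and 10.7.3.1 (4 arrays), per the file headers, and also the scanner's processed intensity and a log10 ratio of red over green. The authors' deposited table holds log2 differences between group means. The submitters' processing notes name limma, with its version not given in the sources used here.

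Mean intensities were corrected by normexp (offset 50) and normalized by loess within each array, with limma 3.58.1 in R 4.3.3 (statmod 1.5.0). The number of arrays limits the precision. Probes were named by accession (24800), alias (1809), symbol (6039), the member list (51) or as in the files (8475). The brightest probe stood for a gene, and genes whose Cy3 was well above background on at least 3 arrays were tested: 24391, or 24379 in comparisons with double-null oil. A model of 10 group means was fitted over all 24 arrays, with Benjamini-Hochberg adjustment over all genes and calls at an adjusted p under 0.05. The fitting steps were tested on simulated data with independent noise on each array. Those data held no slide effect and no outlying array, so the test does not cover either.

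The members and lists were chosen with earlier results of these data known. All 31 members were named. From other interferon lists, up to 4 called genes with the smallest adjusted p and every ligand were named for BP at 6 h. Socs3 and Tlr7 were named there by the fit without WT oil replicate 1. Of the other comparisons, Cyp1b1-null oil had Ifna2 named. Other called genes of these lists were not named, and some comparisons are given no count of them, so the naming does not set BP apart. Replicate numbers did not pair the samples: same-numbered arrays correlated at -0.236 to 0.335 over 25 pairs. Alternatives changed the background correction, signal, channel, scaling, filter, probe rule, slide block, replicate block and the arrays used.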

Additional observations from a re-analysis of the deposited data

How the results depend on the processing

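The median change of the 31 genes after BP at 6 h lay between 0.356 and 0.82 and above 0 under all 17 alternatives tried for it, but the count of called members did not hold. Against 5 called, it was 0 without background subtraction, 0 with processed signals (2 when WT oil replicate 1 was also left out), 1 in Cy3 alone (0 without that array), 3 with scaling between arrays, and 0 with slide as a random block, with or without that array. Leaving out single arrays gave 0 to 11 after BP, 0 to 2 for DMBA, 0 to 7 for TCDD, 0 to 9 for Cyp1b1-null oil, 0 to 8 for Cyp1a1-null oil, 0 to 1 for Cyp1a1-null BP, 1 to 4 for double-null oil, and 0 for each of the other comparisons. The causes were not tested. Counts in this section stand without the share of all genes called under the same setting. They tell whether a count held and are no result about the members.

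For TCDD the count went from 0 to 2 without background subtraction, 1 with processed signals, and 13 in Cy3 alone (10 without WT oil replicate 1). For Cyp1b1-null oil it went from 5 to 1 without background subtraction, 1 with processed signals, 1 with no filter, and 0 in Cy3 alone, with scaling or with the slide block. For Cyp1a1-null oil it went from 2 to 1 without background subtraction, 5 with the mean over probes, and 0 with processed signals, in Cy3 alone, with scaling or with the slide block. For double-null oil it went from 0 to 1 with no filter. Between DMBA and TCDD it went from 0 to 3 with processed signals without WT oil replicate 1, and 17 in Cy3 alone (19 without that array). Between the genotypes after DMBA it went from 0 to 10 in Cy3 alone (12 without that array) and 7 with scaling, and for Cyp1b1-null DMBA against its oil it was 4 with scaling. With the replicate block 3 members were called for Cyp1b1-null oil, 1 for double-null oil and 6 for BP. Aquantile left the log ratios as they were. Scaling between arrays, and Cy3 alone without WT oil replicate 1, were chosen after seeing the data.

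Leaving out WT oil replicate 1 turned the sign of 50 of 186 estimates in the 6 comparisons with WT oil, 5 of them after BP, and 0 of the 50 were called in either fit. It also turned the members' median for DMBA (0.169 to -0.00685), TCDD (0.0467 to -0.128), Cyp1b1-null oil (0.18 to -0.0746) and Cyp1a1-null oil (0.0293 to -0.201). Of estimates called in one setting or the other, signs turned in Cy3 alone with 1 exception, given here with the value without WT oil replicate 1 second where that also turned. After BP, Ifi44 was at -0.13 and -0.315. After TCDD, Ifit2 was at 0.987 and 0.926, Irgm1 at -0.897 and -1.07 and Zbp1 at -0.586, and Igtp at -0.897 only without that array. In Cyp1b1-null oil, Dhx58 was at -0.0232 and Zbp1 at -0.241 and -0.0831. In Cyp1a1-null oil, Isg15 was at 0.259. Between DMBA and TCDD, Mx1 was at -1.56, Ifit2 at -1.25, Ifit3 at -0.653, Ddx58 at -0.586 and Irgm1 at 0.986 in both, and Isg15 at 0.705 and Iigp1 at -0.782 only without that array. Between the genotypes after DMBA, Mx1 was at 1.56, Mx2 at 1.4, Ifit2 at 1.23 and Ifit3 at 0.791 in both. With scaling between arrays, Oasl2 was at 3.93 for Cyp1b1-null DMBA against its oil. Probes near background, such as those of Mx1 and Ifi44, limit what can be read of low levels.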

Other observations

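In the authors' deposited table, the 6 comparisons with WT oil imply 1 shared WT oil mean. Regressed on the 3 WT oil arrays as deposited, across genes, that mean took a weight of -0.00517 or -0.00519 for replicate 1, 0.382 for replicate 2 and 0.447 for replicate 3, with an R² of 0.796. The array deposited as replicate 1 thus had a weight near 0 in the mean behind the authors' deposited table.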
